A study of Rattus norvegicus with 48 samples.

Results

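Liver RNA of 6 genes of inflammatory signaling, Ccl2 (ENSRNOG00000007159), Cxcl1 (ENSRNOG00000002802), Cxcl10 (ENSRNOG00000022256), Il1b (ENSRNOG00000004649), Il6 (ENSRNOG00000010278) and Icam1 (ENSRNOG00000020679), was followed in the rat CDAA model. These 6 genes were selected by identifier out of 32662 listed genes. Livers of 48 male Wistar rats (RjHan:WI, 6 weeks old on arrival, housed in pairs) were sequenced, 8 animals for each diet and time point. The disease groups received CDAA, an l-amino acid-defined diet deficient in choline, with 1% cholesterol for 4, 8 or 12 weeks, and the time matched controls received CSAA, its counterpart supplemented with choline. CDAA also held more fat and less methionine than CSAA, so choline, cholesterol, fat and methionine cannot be told apart as agents. The question was whether the genes differed between the diets and whether this difference changed with time.

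Chemokines are small secreted proteins that direct leukocytes into tissue. Ccl2 attracts monocytes, Cxcl1 attracts neutrophils, and Cxcl10 is an interferon inducible chemokine that attracts T cells. Il1b and Il6 encode the cytokines interleukin-1 beta and interleukin-6, the latter a main inducer of acute phase genes in hepatocytes. Icam1 is an adhesion molecule on endothelial cells, hepatocytes and leukocytes that holds leukocytes at the vessel wall. Transcription of these genes is known to respond to NF-kB, and in steatohepatitis such genes are used as readouts of inflammatory activity. Whole liver was measured, so more cells that express a gene and more RNA per cell cannot be told apart.

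The sequence upstream of the start site is shown for Cxcl1, Cxcl10 and Il6, because these windows hold a match to the NF-kB type motifs searched (A and B). RefSeq promoter windows (build GRCr8) were found for 5 of the 6 genes, not for Ccl2, and the 250 bases before the start were searched on both strands. Motif A was GGGA, then any 2 bases, then TTCC. Motif B was GGG, then any 2 bases, then TTTCC, which can match the same bases as motif A, and the TATA box was searched as TATAAA. All matches are in capitals, and each sequence reads 5′ to 3′ along its gene. The Cxcl1 window lies at chr14:17479322-17479571 on the minus strand, the Cxcl10 window at chr14:15988816-15989065 on the plus strand and the Il6 window at chr4:5894576-5894825 on the minus strand.
Cxcl1: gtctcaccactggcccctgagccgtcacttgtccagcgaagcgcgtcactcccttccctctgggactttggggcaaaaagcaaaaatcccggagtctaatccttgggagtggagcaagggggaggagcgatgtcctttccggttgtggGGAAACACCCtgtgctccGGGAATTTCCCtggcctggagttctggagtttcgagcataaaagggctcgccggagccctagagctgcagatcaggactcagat
Cxcl10: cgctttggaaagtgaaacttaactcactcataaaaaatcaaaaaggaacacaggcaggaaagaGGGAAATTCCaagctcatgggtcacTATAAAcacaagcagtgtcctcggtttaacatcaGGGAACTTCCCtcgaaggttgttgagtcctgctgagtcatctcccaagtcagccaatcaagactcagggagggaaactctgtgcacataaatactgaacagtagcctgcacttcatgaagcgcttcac
Il6: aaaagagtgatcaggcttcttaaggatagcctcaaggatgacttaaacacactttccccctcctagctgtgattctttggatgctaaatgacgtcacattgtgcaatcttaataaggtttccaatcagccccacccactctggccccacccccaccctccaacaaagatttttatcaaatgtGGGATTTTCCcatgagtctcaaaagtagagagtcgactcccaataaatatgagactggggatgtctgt
In Cxcl1, matches began 102, 84 and 83 bases before the start. In Cxcl10, they began 187, 128 and 127 bases before it, with a TATAAA at 162 bases. In Il6, 1 stretch that begins 68 bases before the start matched motifs A and B. The Il1b and Icam1 windows held no match to these motifs, and each held a TATAAA, which began 60 bases before the start of Il1b and 53 bases before that of Icam1. Motif A was found in 1.08%, motif B in 1.30% and either in 2.06% of all 33469 promoter windows of the same length, and TATAAA in 12.9%. A match is a description of letters and does not show binding. Both motifs begin with GGG, so the lack of a match does not show the lack of a site. The Icam1 window holds tggaaattcc, which differs from motif A in the first base.

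Between 13619274 and 22284359 reads per liver were counted on genes. Tests used counts with TMM normalization, which scales for library composition, and a gene was called when its adjusted p was under 0.01 and its level differed by 1 or more on the log2 scale in either direction. TMM factors differed with diet. Their mean at week 12 was 0.777 ± 0.0441 on CSAA and 1.37 ± 0.0515 on CDAA (SD, n = 8 each). With scaling to total reads instead, the median log2 fold change of all 12756 tested genes between the diets was 0.39, 0.65 and 0.73 at weeks 4, 8 and 12. Under TMM the medians were -0.02, 0.05 and -0.09. The genes called at week 12 were split into 2476 higher and 1441 lower on CDAA under TMM and into 4864 and 311 under total reads. At week 4 this split was 1998 to 545 under TMM and 2967 to 246 under total reads, and at week 8 it was 2310 to 1546 and 4291 to 546. RPKM corrects for gene length and for the total of reads on genes, so the RPKM levels below include this shift of all genes. Identifiers in the tables carry no names, so defining markers of hepatocytes and leukocytes were not used here and the tissue label was not checked.

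Levels per length differed strongly between the members. Icam1 was highest, with a median RPKM between 12.5 and 15.6 in the 3 CSAA groups and between 33.1 and 37.7 in the 3 CDAA groups. Median RPKM of Ccl2, Cxcl1, Cxcl10 and Il1b lay between 1.20 and 6.86 on CSAA and between 5.92 and 22.9 on CDAA. On CSAA at week 12, 73.9% of the tested genes had a higher median RPKM than Ccl2 and 22.8% a higher one than Icam1.

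Il6 was too low to measure in single animals. It had no animal at 1 CPM (counts scaled to the reads on genes) in any group and was the 1 member removed by the filter on low counts, so 5 of 6 members were tested. The 8 CSAA livers together had 1 read at week 4, 0 reads at week 8 and 2 reads at week 12. The CDAA livers had 17 reads in 4 of 8 animals at week 4, 10 reads in 7 animals at week 8 and 25 reads in 6 animals at week 12. A single animal, 306, held 11 of the 17 reads at week 4.

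In CPM, pooled over the 8 livers of a group, the CDAA level of Il6 at week 4 was 15.6 times the CSAA level (95% interval 2.45 to 653). At week 12 it was 12.2 times the CSAA level (3.05 to 106). CPM is scaled to total reads, and with TMM library sizes these ratios were 11.8 (1.85 to 493) and 6.93 (1.73 to 60.4). Without animal 306 the ratio at week 4 was 6.35 (0.770 to 292). At week 8 the 0 CSAA reads allow up to 0.0220 CPM (3 reads in the group), and the CDAA level of 0.0743 CPM was 3.37 times this limit. The interval of the ratio at week 8 began at 2.27 in CPM and at 1.49 with TMM library sizes. These exact binomial intervals and the floor cover counting error only. Without the filter, edgeR gave Il6 adjusted p values of 0.022, 0.018 and 0.020 at weeks 4, 8 and 12, and it was called at no week.

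**Figure D1:**
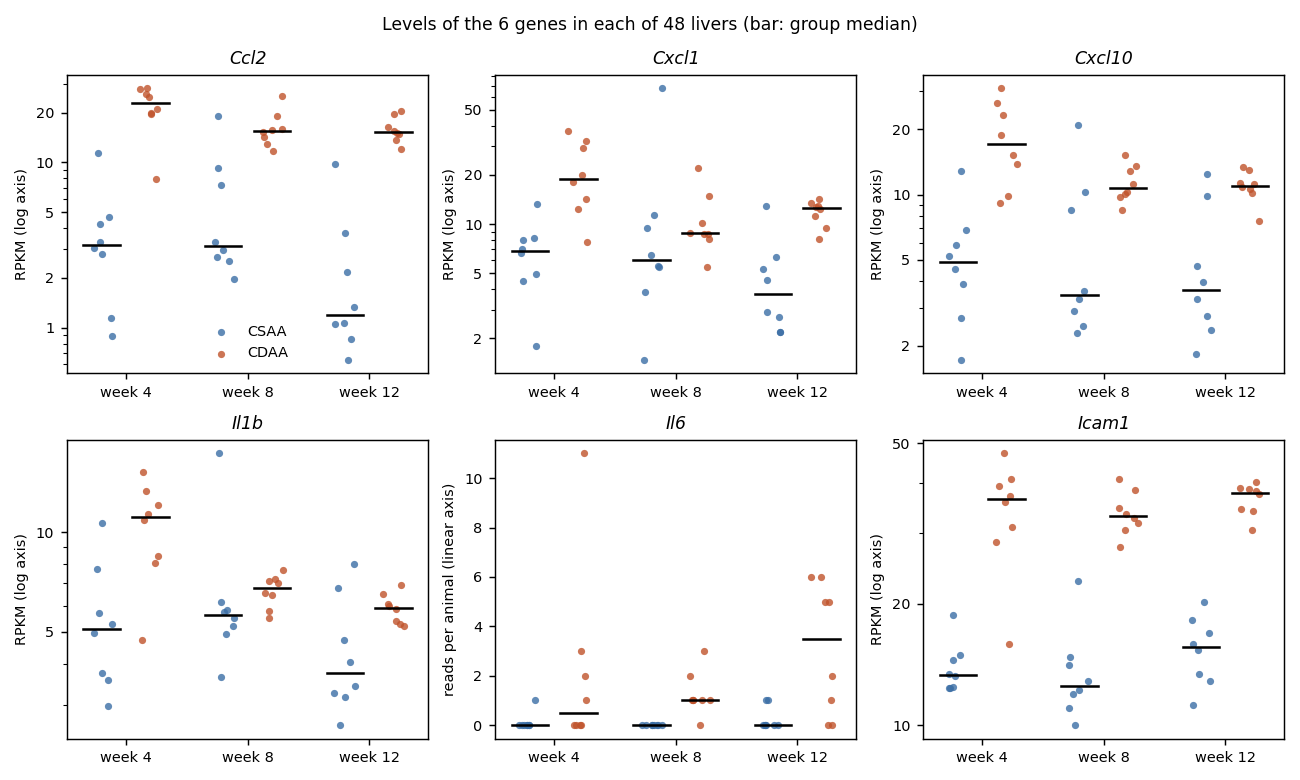
Each point is 1 liver, blue for CSAA and red for CDAA, and bars are group medians of 8 animals. RPKM is on a log axis, and Il6 is given as reads on a linear axis. CDAA Icam1 lies above all CSAA animals at weeks 8 and 12, as CDAA Ccl2 does at week 12. In Ccl2, 1 CSAA animal lies above the lowest CDAA animal at week 4 and 1 at week 8. In Cxcl1, Cxcl10 and Il1b, between 1 and 6 CSAA animals do so at each week. RPKM holds the shift of all genes between the diets, and the directions of Cxcl1 at week 8 and of Il1b at weeks 8 and 12 are opposite under TMM.

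At week 4, 2 of the 5 tested members, Ccl2 and Cxcl10, were higher on CDAA, where 15.7% of all tested genes were called higher and 19.9% were called in either direction. All 5 members had a positive log2 fold change, with a median of 1.20 against -0.02 over all tested genes.

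Ccl2, the monocyte chemokine, had the largest difference of the members. Its RPKM ranged from 0.886 to 11.4 (median 3.17) on CSAA and from 7.95 to 28.2 (median 22.9) on CDAA. Only CSAA animal 105 reached into the CDAA range, and 7 of 8 CDAA animals lay above all CSAA animals. The log2 fold change in the edgeR test was 2.06 ± 0.40 (SE, adjusted p = 2.1e-05), and 5.10% of all tested genes had a higher value.

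Cxcl10 ranged from 1.73 to 12.8 RPKM (median 4.87) on CSAA and from 9.17 to 31.1 (median 17.1) on CDAA. The groups overlapped through CSAA animal 105 alone. Its log2 fold change was 1.35 ± 0.36 (edgeR, adjusted p = 0.0011). Both calls held with each of the 16 animals of week 4 left out in turn.

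Cxcl1, the neutrophil chemokine, ranged from 1.80 to 13.4 RPKM (median 6.86) on CSAA and from 7.76 to 37.2 (median 18.9995) on CDAA. In Cxcl1, 3 CSAA animals lay above the lowest CDAA animal. Its log2 fold change of 1.20 ± 0.45 did not pass the threshold (edgeR, adjusted p = 0.018). The call was made with limma-voom (1.26, adjusted p = 0.0045), with the animals of week 4 alone (adjusted p = 0.0029) and without CSAA animal 102 (1.44, adjusted p = 0.0071), which had the highest Cxcl1 of its group and the lowest Ccl2, Cxcl10 and Il1b.

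Il1b ranged from 2.99 to 10.6 RPKM (median 5.12) on CSAA and from 4.72 to 15.2 (median 11.1) on CDAA. The groups overlapped in 5 CSAA animals. Its log2 fold change was 0.50 ± 0.23 (edgeR, adjusted p = 0.054), below both thresholds.

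Icam1 ranged from 12.4 to 18.8 RPKM (median 13.3) on CSAA and from 16.0 to 47.2 (median 36.4) on CDAA. CDAA animal 303, the lowest, was the only CDAA animal below a CSAA animal. The log2 difference of Icam1, 0.87 ± 0.12, was just below the threshold of 1 but had the lowest adjusted p of the members (edgeR, 2.5e-08). Under total reads Icam1 was called, with a log2 fold change of 1.30.

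At week 8 none of the 5 members was called by edgeR or DESeq2, where 30.2% of all tested genes were called and 18.1% were called higher on CDAA. In edgeR, 4 of the 5 had an unadjusted p under 0.05, and limma-voom called 1. The median log2 fold change of the members was 0.16, against 0.05 over all genes.

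Ccl2 ranged from 1.97 to 19.03 RPKM (median 3.11) on CSAA and from 11.7 to 25.3 (median 15.6) on CDAA. CSAA animal 506 was the only CSAA animal inside the CDAA range. The log2 fold change was 0.81 ± 0.39 (edgeR, adjusted p = 0.057). Without animal 506 it was 1.36 ± 0.37 (adjusted p = 0.0012), which is a call, and limma-voom gave 1.18 (adjusted p = 0.0010).

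Cxcl1 ranged from 1.48 to 67.9 RPKM (median 6.00) on CSAA and from 5.44 to 22.1 (median 8.78) on CDAA. The highest CSAA value, of animal 506, lay above all CDAA animals, and the next highest CSAA value was 11.4 RPKM. The groups overlapped in 6 of 8 CSAA animals. The log2 fold change was -0.99 ± 0.45 in edgeR (adjusted p = 0.042), but 0.22 ± 0.34 without animal 506 (adjusted p = 0.55) and 0.44 on log2(RPKM + 0.1), so its direction at week 8 rested on this animal and on the scale.

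Il1b ranged from 3.66 to 17.3 RPKM (median 5.62) on CSAA and from 5.50 to 7.68 (median 6.79) on CDAA. CSAA animal 506 lay above all CDAA animals, and the other CSAA animals had at most 6.17 RPKM, 3 of them within the CDAA range. On the log2 scale CDAA minus CSAA was -0.65 ± 0.23 under TMM (edgeR, adjusted p = 0.011), -0.02 under total reads and 0.12 on log2(RPKM + 0.1). It was -0.27 without animal 506.

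Cxcl10 ranged from 2.31 to 20.9 RPKM (median 3.43) on CSAA and from 8.51 to 15.3 (median 10.7) on CDAA. CSAA animals 502 and 506 lay in or above the CDAA range. Its log2 fold change was 0.16 ± 0.36 (edgeR, adjusted p = 0.69) and 0.70 without animal 506.

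Icam1 ranged from 10.0 to 22.8 RPKM (median 12.5) on CSAA and from 27.6 to 40.8 (median 33.1) on CDAA, without overlap. In RPKM, 45.6% of all tested genes had every CDAA animal above every CSAA animal at week 8, so this separation was shared by many genes. Under TMM its log2 difference was 0.71 ± 0.12 (edgeR, adjusted p = 7.4e-07), and it was 0.71 without animal 506, whose Icam1 of 12.9 RPKM was near the median of its group.

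**Figure D2:**
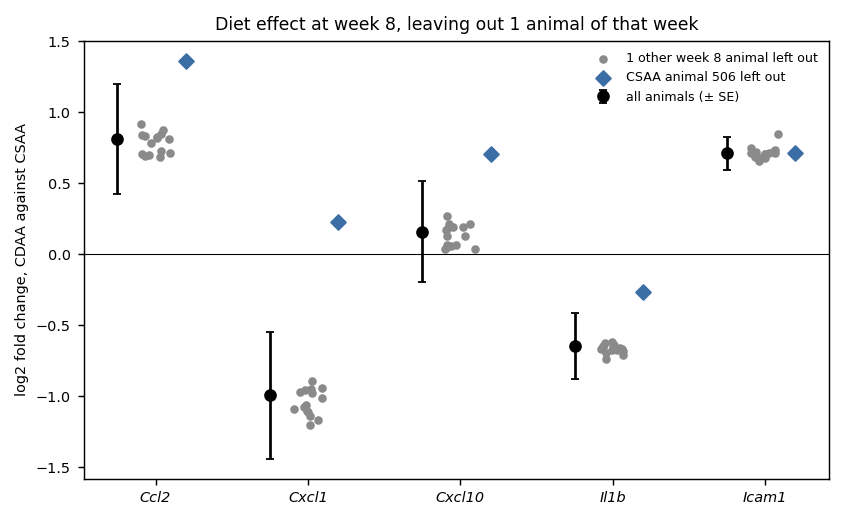
The log2 fold change between the diets at week 8 (TMM scaling) is given with all animals (black, ± SE), with 1 other animal of week 8 left out (grey) and without CSAA animal 506 (blue). Without animal 506 Cxcl1 moves from -0.99 to 0.22, as it also is above 0 in log2 RPKM, Il1b moves from -0.65 to -0.27, and Icam1 stays at 0.71.

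At week 12 only Ccl2 was called, higher on CDAA, beside 19.4% of all tested genes called higher and 30.7% called in either direction. Ccl2 ranged from 0.638 to 9.79 RPKM (median 1.20) on CSAA and from 12.1 to 20.4 (median 15.3) on CDAA, without overlap. In RPKM, 54.5% of all tested genes separated in this way at week 12 (13.9% at week 4, where no member did). Ccl2 had a log2 fold change of 1.85 ± 0.42 (edgeR, adjusted p = 9.8e-05), and it lay between 1.70 and 2.50 with 1 animal left out. The highest of these values was without CSAA animal 908, which had 9.79 RPKM where the next CSAA animal had 3.72.

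Cxcl1 ranged from 2.19 to 12.96 RPKM (median 3.73) on CSAA and from 8.15 to 14.2 (median 12.5) on CDAA. Only CSAA animal 908 lay in the CDAA range. The log2 diet effect was 0.49 ± 0.46 under TMM (edgeR, adjusted p = 0.33) and 1.28 under total reads (adjusted p = 0.011).

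Cxcl10 ranged from 1.84 to 12.5 RPKM (median 3.62) on CSAA and from 7.56 to 13.4 (median 11.0) on CDAA. CSAA animals 906 and 908 lay in the CDAA range. The log2 difference was 0.31 ± 0.36 under TMM (edgeR, adjusted p = 0.43) and 1.10 under total reads, which is a call (adjusted p = 0.0070).

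Il1b ranged from 2.61 to 8.01 RPKM (median 3.74) on CSAA and from 5.22 to 6.90 (median 5.92) on CDAA. CSAA animals 907 and 908 lay in or above the CDAA range. On the log2 scale CDAA minus CSAA was -0.42 ± 0.23 under TMM (edgeR, adjusted p = 0.10) but 0.39 under total reads, so its direction depended on the scaling.

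Icam1 ranged from 11.2 to 20.2 RPKM (median 15.6) on CSAA and from 30.6 to 40.2 (median 37.7) on CDAA, again without overlap. The log2 diet effect was 0.42 ± 0.12 under TMM (edgeR, adjusted p = 0.0014), below the fold threshold, and 1.23 under total reads, above it.

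**Figure D3:**
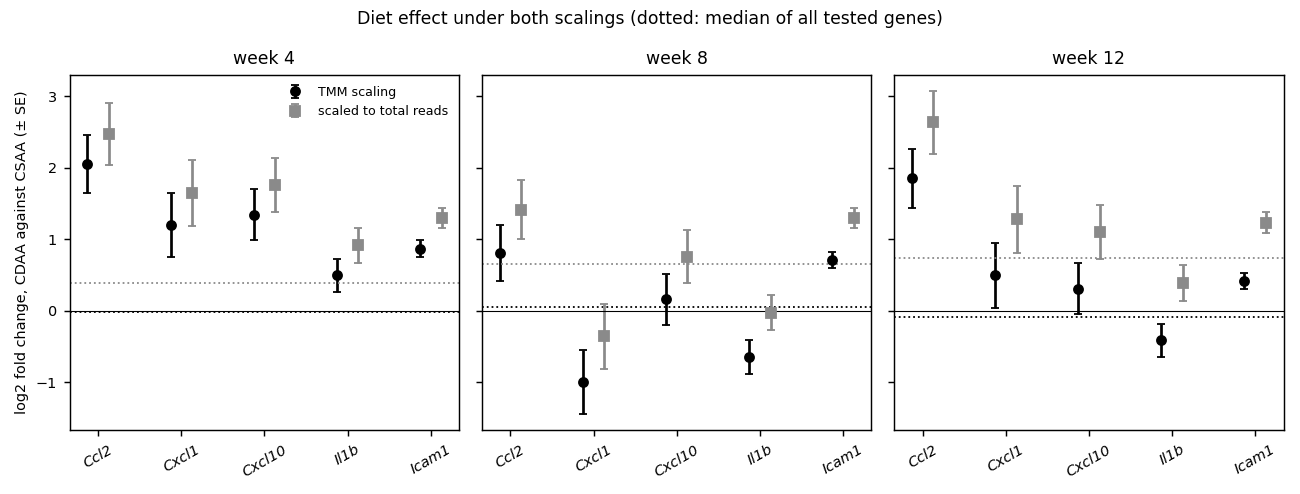
The log2 fold change of CDAA against CSAA (± SE, 8 animals per group) is given for the 5 tested members at each week under TMM (black) and under total reads (grey), with dotted lines at the median of all tested genes. All members are above 0 at week 4 under both, and Ccl2 and Icam1 are above 0 at every week, whereas Il1b at week 12 is -0.42 under TMM and 0.39 under total reads.

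In log2(RPKM + 0.1), the difference of the means between the diets was compared for each of the 6 members and 3 weeks with a two-sided exact permutation test over 12870 divisions of 16 animals. After Benjamini-Hochberg adjustment over these 18 tests, 15 had an adjusted p under 0.05, all higher on CDAA. They include Il6 at weeks 8 and 12, which rest on 0 to 3 and 0 to 6 reads per CDAA animal, and without Il6 13 of 15 tests passed. Those that did not were Cxcl1 at week 8 (0.44, adjusted p = 0.52), Il1b at week 8 (0.12, adjusted p = 0.69) and Il6 at week 4 (0.58, adjusted p = 0.14). Ccl2 at week 12 (3.13) and Icam1 at weeks 8 (1.33) and 12 (1.25) reached p = 0.000155, the smallest that this exact permutation test can give. The median log2(RPKM + 0.1) difference of all 12756 tested genes was also above 0, at 0.37, 0.64 and 0.73 at weeks 4, 8 and 12. The permutation test was not run over all genes, so the share of them that would pass is not known. On log2 CPM with TMM factors, which can be tested for 5 members, 9 of 15 differences had an adjusted p under 0.05. Of these, Il1b at week 8 was lower on CDAA (-0.48, exact permutation test, adjusted p = 0.028), and Cxcl1 at week 8 had a difference of -0.16 with an adjusted p of 0.81.

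The diet effect differed between weeks 8 and 4 for Cxcl1 and Il1b, the 2 of 5 members called in this comparison (4.25% of all tested genes were called). Under TMM their log2 fold changes changed sign, from 1.20 at week 4 to -0.99 at week 8 for Cxcl1 and from 0.50 to -0.65 for Il1b. The difference of the log2 fold changes was -2.19 ± 0.63 for Cxcl1 (edgeR interaction, adjusted p = 0.0064) and -1.15 ± 0.33 for Il1b (adjusted p = 0.0055). It was -1.24 ± 0.56 for Ccl2 (adjusted p = 0.081), -1.19 ± 0.50 for Cxcl10 (adjusted p = 0.065) and -0.16 ± 0.17 for Icam1 (adjusted p = 0.50). Without CSAA animal 506 neither gene was called, with -0.97 for Cxcl1 (adjusted p = 0.11) and -0.76 for Il1b (adjusted p = 0.024). Under total reads neither was called (-2.001, adjusted p = 0.015, and -0.94, adjusted p = 0.033).

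No member was called for the difference between weeks 12 and 4, where 5.04% of all tested genes were called, or between weeks 12 and 8, where 4.01% were. By edgeR, 3 members had an unadjusted p under 0.05 in the former comparison and 1 in the latter, and limma-voom and DESeq2 made no call either. The nearest were Il1b (-0.91 ± 0.33, edgeR, adjusted p = 0.027) and Icam1 (-0.45 ± 0.17, adjusted p = 0.031) for week 12 against week 4. Without CSAA animal 105, Il1b was called there (-1.10, adjusted p = 0.0065).

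Within the CDAA diet, Il1b and Cxcl10 fell from week 4 to week 12, 2 of 5 members beside 10.6% of all tested genes called. The RPKM of Il1b went from a median of 11.1 to 5.92, and the lowest animal at week 4, number 303, lay below the week 12 range. Its log2 fold change was -1.16 ± 0.23 (edgeR, adjusted p = 3.0e-05). Cxcl10 went from a median of 17.1 to 11.0 RPKM, with a log2 fold change of -1.08 ± 0.35 (adjusted p = 0.0070). The Cxcl10 call held in 7 of 16 fits that left out 1 animal and the Il1b call in 16 of 16. Under total reads neither passed the fold threshold, with -0.83 for Il1b (adjusted p = 0.0030) and -0.75 for Cxcl10 (adjusted p = 0.072).

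Cxcl1 (-1.17 ± 0.44, edgeR, adjusted p = 0.020), Ccl2 (-0.79 ± 0.37, adjusted p = 0.065) and Icam1 (-0.25 ± 0.12, adjusted p = 0.062) were not called on CDAA by edgeR, although Icam1 was 0.08 under total reads. Cxcl1 was called by limma-voom (-1.07, adjusted p = 0.0051) and in the edgeR fit of the CDAA animals alone (adjusted p = 0.00043). Within the CSAA diet, no member was called between weeks 12 and 4 by edgeR, limma-voom or DESeq2, none had an unadjusted p under 0.05, and 2.68% of all tested genes were called by edgeR. These log2 fold changes lay between -0.58 (Ccl2) and 0.20 (Icam1).

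Ordered by mean log2(RPKM + 0.1), the 3 CDAA groups were above the 3 CSAA groups for Ccl2, Cxcl1, Cxcl10, Il6 and Icam1. For Il1b, CSAA at week 8 lay between CDAA at weeks 8 and 12. RPKM holds the shift of all genes between the diets, and the share of all genes ordered with CDAA on top was not counted. Il6 rests on few reads. In mean log2 CPM with TMM factors, the CDAA groups stayed above the CSAA groups for Ccl2, Cxcl10 and Icam1. Cxcl1 on CSAA at week 8 (3.03) lay above CDAA at week 12 and at week 8 (2.87). For Il1b, the CSAA groups (2.94 to 3.34) lay above CDAA at weeks 8 (2.87) and 12 (2.61). Neighbours in the RPKM orders were compared in 30 exact permutation tests (two-sided). The orders came from the same values, so the pairs were picked by the data and the p values are a description. Where neighbours differ in both diet and week, the tests cannot tell diet from week. After adjustment over the 30, Ccl2 differed between CDAA at week 12 and CSAA at week 8 (1.78, adjusted p = 0.019) and Icam1 between CDAA at week 4 and CSAA at week 12 (1.11, adjusted p = 0.019). The other 28 tests had no adjusted p under 0.05, which does not show that these neighbours were equal. The lowest of them was 0.115, for Il1b between CDAA at weeks 4 and 8 (0.58, exact permutation test).

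In these members, animals varied more on CSAA than on CDAA. The SD of log2(RPKM + 0.1) was larger on CSAA in 14 of 15 pairs of gene and week, the exception being Icam1 at week 4, and this was not tested. It lay between 0.20 and 1.55 on CSAA and between 0.13 and 0.76 on CDAA. For Cxcl1 at week 8, the highest animal had 45.9 times the RPKM of the lowest on CSAA and 4.06 times on CDAA. The highest on CSAA was animal 506. At week 12 these ratios were 5.92 on CSAA and 1.74 on CDAA. The genes of a week share the same animals, and the SD was not compared over all genes. Ccl2 at week 12 had a median of 18 reads on CSAA and 242.5 on CDAA, and the part of counting error in the SD was not tested.

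Several of the high values of the CSAA groups fell on the same animals. Animal 506 was highest of its group in Ccl2 (6.12 times the group median), Cxcl1 (11.3 times), Cxcl10 (6.08 times) and Il1b (3.08 times) but not in Icam1 (1.03 times). Animal 908 was likewise highest of its group in these 4 genes, by 8.17, 3.47, 3.44 and 2.14 times the median, with Icam1 at 1.02 times. Animal 105 was highest in Ccl2, Cxcl10 and Il1b, by 3.59, 2.64 and 2.08 times, but not in Cxcl1 (1.16 times), with Icam1 at 1.09 times. Animal 102 ran the other way, highest of the week 4 CSAA group in Cxcl1 and lowest in Ccl2, Cxcl10 and Il1b, and Icam1 was highest in animals 106, 504 and 906. On CDAA, animal 303 was the lowest at week 4 in Ccl2, Cxcl1, Il1b and Icam1, at 0.347, 0.408, 0.425 and 0.438 times the group median. Its TMM factor of 0.827 lay within the range of the CSAA group of week 4 (0.759 to 0.857) and below the other 7 CDAA animals (1.04 to 1.17). The part of library composition in these values was not tested, and sequencing pools and cages are not given in the labels.

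**Figure D4:**
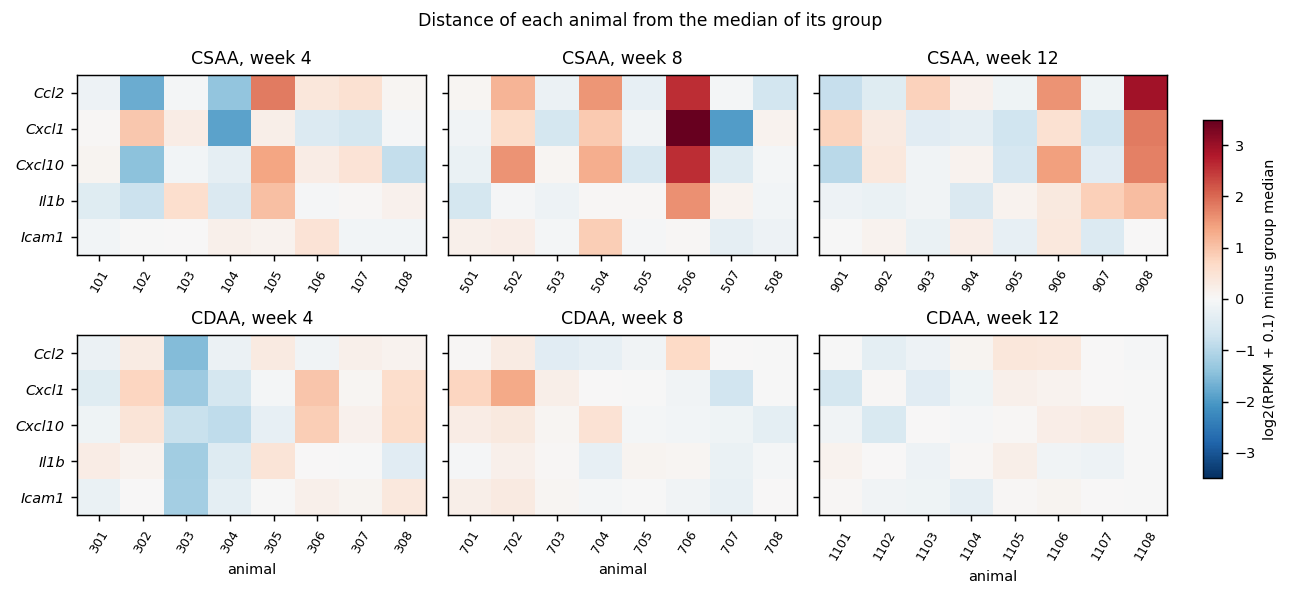
Colors give log2(RPKM + 0.1) of each animal (columns) minus the median of its group, for the 5 tested members (rows), red above and blue below the median. CSAA animals 506 and 908 are red in Ccl2, Cxcl1, Cxcl10 and Il1b and pale in Icam1, and CDAA animal 303 is blue in all 5 genes.

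Over the 48 animals, the likeness of expression patterns was measured as the root mean square (RMS) difference of mean centered log2 CPM (TMM) between a member and each of the other 12755 tested genes. The gene nearest to Cxcl1 was Cxcl10 (0.74, where Cxcl1 itself varied with an RMS of 0.97), and Il1b was the 10th nearest. In the other direction Cxcl1 ranked 247 among the genes nearest to Cxcl10 and 8651 among those nearest to Il1b. Cxcl10 ranked 107 among the genes nearest to Ccl2, and Ccl2 ranked 692 among those nearest to Cxcl10. The nearest other member ranked 62 for Cxcl10 (Icam1), 6350 for Il1b (Icam1) and 7653 for Icam1 (Cxcl10). The nearest genes of Ccl2, Cxcl10, Il1b and Icam1 were not members, with RMS differences of 0.52, 0.56, 0.39 and 0.20. These members themselves varied with an RMS of 1.31, 0.86, 0.55 and 0.42. For Il1b and Icam1 the RMS difference to the nearest other member (0.71 and 0.69) was larger than their own RMS. ENSRNOG00000023226, nearest to Ccl2, had log2 fold changes between the diets of 2.19, 0.93 and 2.41 at weeks 4, 8 and 12. ENSRNOG00000012204, nearest to Icam1, had 0.73, 0.75 and 0.48. All points share the same libraries, and the diets differ in composition, so these distances are a description.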

How the data were processed

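The authors aligned single-end reads of a stranded mRNA library with STAR (genome Rnor_6.0), used featureCounts with Ensembl 84 genes and deposited these counts without normalization. The deposited RPKM values are scaled for gene length and for the reads on genes. Groups were taken from the diet and week in the labels, and 0 columns were left over. A gene was kept if 5 or more animals of any group reached 1 CPM (12756 genes). Counts of all 48 animals were tested in 1 fit with edgeR 4.0.16 (TMM, quasi-likelihood, R 4.3.3), with p adjusted by Benjamini-Hochberg over these genes. SEs were derived from the test statistic. RPKM was tested as log2(RPKM + 0.1) with exact permutation tests (scipy 1.17.1). Simulated counts for 12756 genes were tested for the week 12 comparison. A true log2 change of 2 was given to 200 genes, up and down in equal numbers, and edgeR recovered 188 with 0 false calls. Under TMM, the diet effects of all tested members at week 12 were smaller than this change. Only the 16 animals of that week were simulated, so power for the members in the fit of 48 animals was not tested. No shift of library composition between the diets was simulated, so the choice of scaling was not tested. Alternatives were limma-voom (limma 3.58.1), DESeq2 1.42.0, other scalings, no filter, subsets of animals and each animal left out. Genes and lists were chosen with earlier results of these data known. Pathway and cell type marker lists were not run, because the tables pair no identifiers with names and the RefSeq table used here holds 0 Ensembl identifiers. Named genes are the 6 members and the nearest genes in pattern, of which 2 identifiers are printed. Replicates are separate animals. The lowest chi-square per gene among 168 pairs of animals of 1 group was 3.41, above the value of about 1 that repeated sequencing of 1 library would give, so all were counted as separate. Pools of 7 libraries and cages are not given per sample, and no batch was modelled.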

Additional observations from a re-analysis of the deposited data

Results flagged for a closer look

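RPKM values that stood far from the other 7 animals of their group were found in 13 of 35 combinations of gene and group with any reads, where chance flags about 1 in 20 groups of normally distributed values, which RPKM values need not be. Of these, 11 were on CSAA. On log2(RPKM + 0.1), chosen after seeing the data, 7 stood apart, 4 of them on CSAA. These were animal 303 in Ccl2 and Icam1, 506 in Il1b, 106 and 504 in Icam1, and 306 and 102 in Il6, so the distances of 506, 908 and 105 in the chemokines given below hold for RPKM only. CSAA animal 506 at week 8 was far above the others in Ccl2 (19.03, next 9.31), Cxcl1 (67.9, next 11.4), Cxcl10 (20.9, next 10.3) and Il1b (17.3, next 6.17). CSAA animal 908 at week 12 stood apart in Ccl2 (9.79, next 3.72) and Cxcl1 (12.96, next 6.28), and CSAA animal 105 at week 4 in Ccl2 (11.4, next 4.65) and Cxcl10 (12.8, next 6.84). In Icam1 other CSAA animals stood apart, 106 at week 4 (18.8, next 14.98) and 504 at week 8 (22.8, next 14.8). On CDAA at week 4, animal 303 was far below the others in Ccl2 (7.95, next 19.7). For Il6, CDAA animal 306 at week 4 (0.507, next 0.128) and CSAA animal 102 at week 4 (0.051, which is 1 read, all others 0) rest on few reads.

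The diet effect differed between weeks 8 and 4 for Cxcl1 (-2.19 on the log2 scale) and Il1b (-1.15), by the edgeR interaction test. Neither was called without CSAA animal 506.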

How the results depend on the processing

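Scaling moved most counts of called members. Scaling to total reads gave 4, 2 and 3 called members at weeks 4, 8 and 12, in place of 2, 0 and 1. With limma, log2(RPKM + 0.1) gave 4, 3 and 4, and log2(RPKM + 1) gave 4, 2 and 4. Of all 12756 tested genes, total reads called 3213, 4837 and 5175, in place of 2543, 3856 and 3917. The same counts were 2805, 4625 and 5093 with log2(RPKM + 0.1) and 1405, 2511 and 3030 with log2(RPKM + 1). These 3 settings gave 0 called members in place of 2 for week 8 minus week 4. They also gave 0 in place of 2 for week 12 against week 4 on CDAA. Over all tested genes they called 478, 521 and 215 in place of 542, and 1784, 1665 and 600 in place of 1347. limma-voom called 1 member at week 8 and 1 for week 8 minus week 4, and the fit of the animals of the 2 weeks alone, chosen after seeing the data, called 0. On CDAA, DESeq2, RLE factors, leaving out animals 303, 504, 908 and 1102 (apart in earlier results) and leaving out animals 1106 to 1108 gave 1 each, Il1b, whereas limma-voom and the CDAA animals alone gave 3. The permutation result went from 15 of 18 to 9 of 15 with TMM factors, which leave out Il6, and from 13 to 9 on the same 5 members. Over all pairs of a result and a setting, apart from leaving out 1 animal, 59 kept their count within 1.5 times and 23 did not. A count of 0 in both was taken as kept. Directions reversed for Cxcl1 at week 8 (0.44 and 0.34 in log2 RPKM with 0.1 and 1 added, and 0.22 without CSAA animal 506, where all fits that left out 1 animal ranged from -1.21 to 0.22), Il1b at week 8 (0.12 and 0.10) and Il1b at week 12 (0.47 and 0.39 in log2 RPKM, and 0.39 under total reads). The cause was not tested.

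Leaving out 1 animal gave 2 to 3, 0 to 1 and 1 to 1 called members at weeks 4, 8 and 12, 0 to 2 for week 8 minus week 4, 0 to 1 for week 12 minus week 4, 0 to 0 for week 12 minus week 8, 1 to 2 on CDAA and 0 to 0 on CSAA, and 14 to 17 permutation tests. For week 8 minus week 4, Cxcl1 was called in 24 of 32 such fits, with adjusted p from 0.0021 to 0.11, and Il1b in 28 of 32, with adjusted p from 0.0011 to 0.024. No paired analysis was possible because the replicate numbers were given in accession order and the animals of different groups share none. The alternatives for pathway lists were not run for lack of gene names. Depth limits Il6 most, and Ccl2 had as few as 11 reads in a CSAA animal.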
